A study of Mus musculus with 16 samples.

Results

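The genes described here are 10 that mark microglia, the macrophages resident in brain tissue: Csf1r, Cx3cr1, P2ry12, Trem2, Tyrobp, C1qa, C1qb, C1qc, Aif1 and Ctss. They were taken by symbol from per-library tables of FPKM (a read count divided by transcript length and by the depth of the library), in which 16250 gene symbols were listed in at least 1 library and 13396 in all 16. All 10 were listed in 12 libraries, and Aif1 was not listed in cortex replicates 4 and 5. The RNA was total RNA from wild-type mice before birth, at embryonic day 18.5, in libraries titled as cortex or hippocampus and labelled as enriched environment (EE) or standard habitation (SH). There were 5 EE and 5 SH libraries of cortex and 3 EE and 3 SH libraries of hippocampus. The series title places the enrichment before birth. The labels name neither the fetuses nor the litters, nor whether animals were pooled, so p-values measure only the spread between these libraries, part of which may be technical. Cortex replicates 1 to 3, cortex replicates 4 and 5, and the hippocampal libraries had tables of 15996, 13448 and 15247 genes, and each of these 3 sets is treated as a block.

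Microglia enter the brain early in embryonic life and depend on signalling through the receptor CSF1R, whose ligands are CSF1 and the largely neuronal IL34. Neurons also carry the chemokine CX3CL1, which is read by CX3CR1, and microglial processes sense nucleotides through P2RY12. TREM2 passes its signal through the adaptor TYROBP, and C1QA, C1QB and C1QC are the chains of C1q, the protein that starts the classical complement pathway and has been linked to synapse removal in the developing brain. Several of these genes are also active in macrophages of the meninges and vessels, which is why markers of those cells are given beside the results. In tissue RNA, fewer microglia and less RNA per microglial cell cannot be told apart.

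The members moved together across libraries (values below), so the sequence just upstream of their start sites was compared. RefSeq windows on build GRCm38.p6, the 250 bases before the start, were matched for 7 of the 10 genes (Aif1, C1qb, C1qc, Ctss, Cx3cr1, P2ry12 and Trem2). The letters GAGGAA, the core recognised by the myeloid factor PU.1, were searched on both strands. C1qa (chr4:136895917-136898803), C1qb (chr4:136880129-136886187) and C1qc (chr4:136889804-136893065) lie side by side on the minus strand in the GENCODE M21 annotation of mm10. The letters were present in 5 of the 7 windows, those of Aif1, C1qb, C1qc, Ctss and Trem2, and in 23.3% of all 32851 windows of the same length. The windows of Cx3cr1 and P2ry12 held none. A second pattern, a composite site of IRF factors and PU.1, was also searched. It matched none of the 7 windows, against 2.3% of all 32851. At so low a rate, its absence from 7 windows says little. A match describes letters only, and a window without GAGGAA may still hold other forms of the site. The windows of C1qb (chr4:136886201-136886450, minus strand), Trem2 (chr17:48346151-48346400, plus strand) and Ctss (chr3:95526536-95526785, plus strand) are shown as a complement chain, a receptor and a protease that share the letters, and that of P2ry12 (chr3:59262986-59263235, minus strand) as a member without them. Each is printed 5′ to 3′ on the gene's strand and ends at the base before the start. Capitals mark GAGGAA or its reverse complement TTCCTC.
C1qb: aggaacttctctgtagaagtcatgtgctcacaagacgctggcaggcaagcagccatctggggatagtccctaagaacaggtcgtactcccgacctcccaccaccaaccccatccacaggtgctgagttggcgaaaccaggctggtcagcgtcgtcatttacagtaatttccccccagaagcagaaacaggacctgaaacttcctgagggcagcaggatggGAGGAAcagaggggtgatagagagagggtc
Trem2: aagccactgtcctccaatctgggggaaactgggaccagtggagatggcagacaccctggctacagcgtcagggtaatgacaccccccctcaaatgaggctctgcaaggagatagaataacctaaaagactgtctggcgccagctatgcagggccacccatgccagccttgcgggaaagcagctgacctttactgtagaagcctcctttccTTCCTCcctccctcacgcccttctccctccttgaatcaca
Ctss: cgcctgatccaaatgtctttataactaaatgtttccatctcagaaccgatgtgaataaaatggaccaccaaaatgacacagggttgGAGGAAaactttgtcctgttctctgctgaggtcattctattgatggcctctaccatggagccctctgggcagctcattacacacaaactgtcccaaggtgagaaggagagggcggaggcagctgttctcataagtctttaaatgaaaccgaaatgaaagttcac
P2ry12: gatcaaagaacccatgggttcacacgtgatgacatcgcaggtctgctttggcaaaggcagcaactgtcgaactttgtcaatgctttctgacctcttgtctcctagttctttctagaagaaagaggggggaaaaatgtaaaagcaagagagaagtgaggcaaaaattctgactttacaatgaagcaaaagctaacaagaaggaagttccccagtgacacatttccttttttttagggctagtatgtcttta
The capitals lie 30 to 25 bases before the start in C1qb, 40 to 35 in Trem2 and 164 to 159 in Ctss.

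Levels per transcript length put the C1q chains first in both tissues. In cortex the median FPKM over 10 libraries was 35.6 for C1qb, 32.9 for C1qc and 26.4 for C1qa, followed by Tyrobp (19.7), Ctss (10.5), Csf1r (10.1), Cx3cr1 (5.09), Trem2 (4.65) and P2ry12 (2.22). Aif1, which encodes the calcium-binding protein IBA1 used to stain microglia, was lowest at 1.88 over 6 libraries. In hippocampus the medians over 6 libraries ran in nearly the same order: C1qb 35.0, C1qc 33.5, C1qa 27.8, Tyrobp 22.2, Ctss 11.04, Csf1r 10.7, Trem2 8.39, Cx3cr1 6.88, P2ry12 2.85 and Aif1 1.73. Some neighbours could not be ordered. C1qb exceeded C1qc in 9 of 10 cortical but 3 of 6 hippocampal libraries, Ctss exceeded Csf1r in 7 of 10 and 4 of 6, and Cx3cr1 and Trem2 each led in 5 of 10 cortical and 3 of 6 hippocampal libraries. Tyrobp stood between C1qa and Ctss in all 16. The values rest on few reads for the lowest genes. Whole reads recovered from the FPKM were 14 to 123 per library for Aif1, 45 to 180 for P2ry12 and 43 to 282 for Trem2, against 226 to 1389 for C1qa, 283 to 1756 for C1qb and 395 to 1251 for Csf1r.

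Other genes of the lineage were detected with them. Of 28 further microglia genes all 28 were listed in the hippocampus and in cortex replicates 1 to 3, 24 and 21 of them at a mean of 1 FPKM or more. Spi1, which encodes PU.1, had 2.31 ± 0.886 FPKM (SD, n = 16). Cd68, a lysosomal membrane protein of macrophages, had 7.47 ± 1.75 FPKM, Irf8 1.38 ± 0.370 and Itgam 0.785 ± 0.291. Of 13 markers of monocytes, neutrophils and lymphocytes 9 were not listed in cortex replicates 1 to 3, 11 in cortex replicates 4 and 5 and 12 in hippocampus. The 1 listed throughout, the neutrophil and monocyte gene S100a9, had 0.395 to 4.47 FPKM in hippocampus and 1.96 to 4.19 in cortex replicates 1 to 3, but 12.8, 13.6 and 13.8 in cortex EE replicate 5 and SH replicates 4 and 5, where it exceeded Csf1r, and 1.38 in EE replicate 4. Downstream complement was low beside C1q. C3, the component cleaved after C1q activation, had 0.168 to 0.981 FPKM in cortex replicates 1 to 3 and hippocampus and 0.0769 in cortex EE replicate 4, but 2.001, 1.55 and 1.78 in cortex EE replicate 5 and SH replicates 4 and 5. C4b had 0.669 ± 0.363 (n = 16), while C1ra, a protease of the C1 complex, had 0.325 ± 0.205 in the 12 libraries that list it. C3ar1, the receptor for the C3 fragment, had 0.941 ± 0.348. Serping1, the C1 inhibitor, had 11.6 ± 2.82 FPKM. Hcst, an alternative adaptor, was not listed, and Syk, the kinase below TYROBP, had 0.878 ± 0.213 FPKM.

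**Figure D1:**
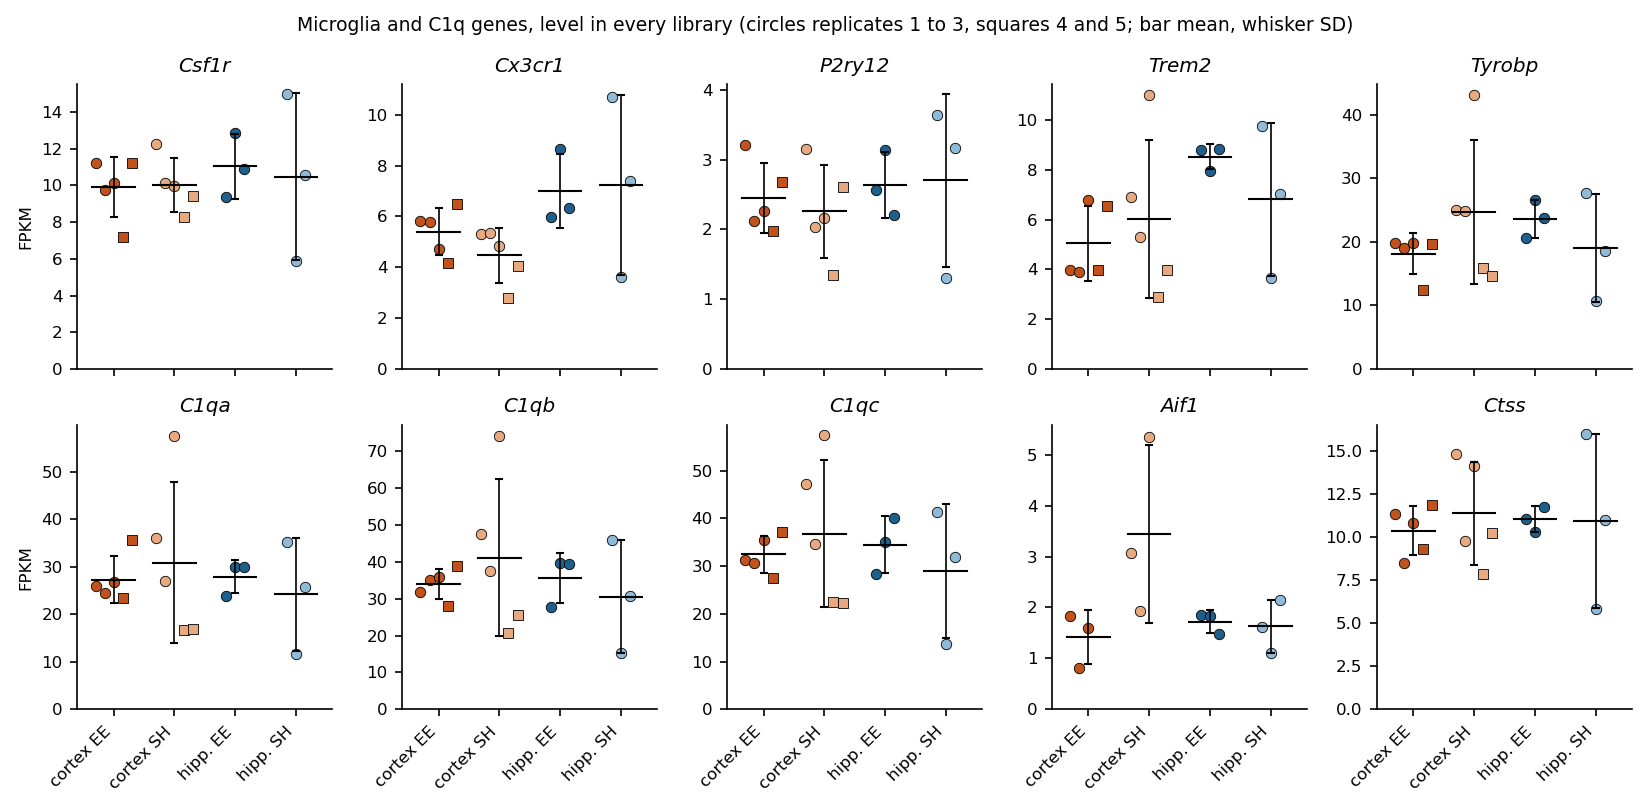
FPKM of each of the 10 genes (vertical axis, from 0) in every library of the 4 groups (horizontal axis), with circles for replicates 1 to 3, squares for cortex replicates 4 and 5, a bar at the group mean and a whisker of 1 SD. Cortex SH replicate 3 is the highest point for C1qa (57.5), C1qb (74.1), C1qc (57.4), Tyrobp (43.2), Trem2 (11.03) and Aif1 (5.36), and hippocampus SH replicate 2 is the lowest hippocampal point in all 10 panels.

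None of the 10 genes passed the test between hippocampus and cortex (limma, 12 libraries of replicates 1 to 3, Benjamini-Hochberg adjusted p at or under 0.05), although 35.4% of the 13158 genes tested did. The members' log2 differences, hippocampus minus cortex on log2(FPKM + 1), had a median of -0.17, against 0.09 over all genes, with 3 positive and 7 negative. The omission of 1 library could turn or shrink that median: it was 0.03 without hippocampus SH replicate 2, -0.05 without cortex SH replicate 3, and 0.012 with cortex replicates 1 to 5. The 7 members with transcripts under 1.5 kb (lengths given below) had a median of -0.26, and all genes under 1.5 kb had -0.06. The 3 members of 2 kb or more had 0.05, and all genes of 2 kb or more had 0.13. The part of length in the tissue differences was not tested. The members' levels did not separate the tissues: for 0 of 10 members did the 6 hippocampal values lie wholly above or below the 6 cortical ones, against 20.5% of all genes. Csf1r had 10.8 ± 3.11 FPKM (SD, n = 6) in hippocampus and 10.6 ± 0.968 (n = 6) in cortex replicates 1 to 3, a log2 difference of -0.02 with a 95% interval of -0.38 to 0.34. P2ry12 had 2.67 ± 0.839 and 2.49 ± 0.539 FPKM, a difference of 0.05 (-0.31 to 0.41). A missed threshold does not show equal levels, and the C1q intervals were wider, with C1qb at -0.41 (-0.97 to 0.15, adjusted p = 0.241), C1qc at -0.35 (adjusted p = 0.296) and C1qa at -0.33 (adjusted p = 0.342).

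Cx3cr1 came nearest to a call. Its hippocampal values were 5.99, 8.67 and 6.34 FPKM in EE and 10.7, 3.61 and 7.41 in SH, against 5.82, 5.77, 4.73, 5.33, 5.33 and 4.85 in cortex replicates 1 to 3. All hippocampal values but 1 lay above all 6 of those cortical values, and hippocampus SH replicate 2 lay below them. The log2 difference was 0.31 ± 0.18 (SE, limma adjusted p = 0.205), and without hippocampus SH replicate 2 it was 0.47 and was called higher in hippocampus (adjusted p = 0.0150). Over the other settings the adjusted p ranged up to 0.430. The ratio of Cx3cr1 to Csf1r within a library was 0.581 to 0.714 in the 6 hippocampal libraries and 0.338 to 0.593 in the 10 cortical ones. Likewise Trem2 over Tyrobp was 0.299 to 0.427 in hippocampus and 0.184 to 0.342 in cortex, so both ratios overlapped between tissues at their edges. Trem2 alone differed by 0.27 (95% interval -0.26 to 0.80, adjusted p = 0.421), and by 0.47 (adjusted p = 0.0821) without hippocampus SH replicate 2.

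Of 10 ligands, receptors and signalling genes of the CSF1R, CX3CR1 and TGF-beta pathways 2 passed as higher in hippocampus and 2 as lower, a share close to the 35.4% of all genes called. Cx3cl1 was lower in hippocampus, at 12.5, 13.2 and 17.1 FPKM in EE and 14.2, 14.1 and 11.2 in SH, against 31.0, 35.9, 32.8, 29.7, 32.2 and 24.9 in cortex replicates 1 to 3. Every hippocampal library lay below every cortical library (log2 difference -1.13 ± 0.10, SE, adjusted p = 7.56e-06). Il34 was also lower without overlap, at 1.13 to 3.64 FPKM in hippocampus and 4.07 to 6.16 in cortex (-0.89 ± 0.18, adjusted p = 0.00224). Csf1 was higher in hippocampus, 3.99 to 8.85 against 3.33 to 4.45 FPKM (0.47 ± 0.15, adjusted p = 0.0247), with 1 hippocampal library inside the cortical range. The Csf1 call was lost under median-of-ratios scaling (adjusted p = 0.0587), with limma-voom (0.0546) and without cortex EE replicate 3, cortex SH replicate 2 or hippocampus EE replicate 2 (0.0521 to 0.0631). Tgfb2 was higher, at 9.45 to 16.3 FPKM in hippocampus and 2.92 to 4.92 in cortex (1.53 ± 0.13, adjusted p = 6.49e-06). Tgfb1, the ligand needed for microglial identity, had 4.26 ± 0.934 FPKM in cortex and 3.73 ± 1.07 in hippocampus and did not pass.

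Border macrophage genes were lower in hippocampus. Of 10 fixed markers 8 were tested, all 8 were negative and 6 passed, with a median of -1.02. Over all 13158 genes tested 35.4% passed, 3233 as higher and 1428 as lower, which is the background for each list in this paragraph. Pf4, a chemokine of these cells, had 15.7 to 50.8 FPKM in cortex replicates 1 to 3 and 3.70 to 13.3 in hippocampus, with no overlap (-1.58 ± 0.32, SE, adjusted p = 0.00256). F13a1 (-1.34), Lyve1 (-1.19), Cbr2 (-1.15) and the mannose receptor Mrc1 (-0.88) also passed. The calls of these 5 held in all of the 18 to 20 other settings tried for each, and Cd163 (-0.62, adjusted p = 0.0309) was the sixth. Some of those settings could change only the p-value and not the tissue difference: another filter, a replicate block and the removed length trend. Of 12 meningeal and fibroblast markers 11 were negative (median -0.78), 4 called lower and 1 higher, and of 11 choroid plexus markers all were positive (median 1.76), 3 called higher. The summed level of the 6 border macrophage markers listed in all libraries was 10.3 to 38.5 FPKM in hippocampus and 30.0 to 76.2 in cortex. The part of these 3 kinds of cells in the members' levels was not tested. Other microglia genes shared no direction: of 22 tested 11 were positive, and 2 passed as higher and 2 as lower. Sall1, a transcription factor of microglia that progenitors also express, was higher (0.62 ± 0.19, adjusted p = 0.0235), as was Rnase4 (0.46 ± 0.16, adjusted p = 0.0417). Tmem119, a microglial membrane protein, was lower at 1.08 to 4.05 against 3.75 to 6.31 FPKM (-0.65 ± 0.21, adjusted p = 0.0272). The Sall1 call was lost without hippocampus EE replicate 2, SH replicate 1 or SH replicate 3 (adjusted p = 0.0572, 0.0539 and 0.0514). The Tmem119 call was lost without cortex SH replicate 1, hippocampus EE replicate 1 or hippocampus SH replicate 3 (0.0628, 0.0608 and 0.0588). That of Rnase4 was lost in 12 of 20 settings, median-of-ratios scaling, limma-voom and the omission of any of 10 libraries, with an adjusted p of up to 0.117.

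Around C1q, 3 cascade genes and 13 regulators were tested, of which 2 and 3 were higher in hippocampus and 1 and 2 lower. The counts for these and the following lists stand beside 35.4% of all 13158 genes called between tissues. The lectin pathway protease Masp1 was higher, 14.4 to 18.9 against 9.93 to 11.1 FPKM (0.58 ± 0.08, SE, adjusted p = 0.000158), as was properdin, Cfp (0.52 ± 0.15, adjusted p = 0.0193). C2 was lower (-0.65 ± 0.18, adjusted p = 0.0147). The Cfp call was lost under median-of-ratios scaling (0.0729), limma-voom (0.0814) and without hippocampus EE replicate 2 (0.0505). Of the regulators, vitronectin, Vtn, was lower (-1.06 ± 0.24, adjusted p = 0.00482) with Sez6l2 (-0.47 ± 0.14, adjusted p = 0.0184), and Csmd1 was higher (0.44 ± 0.13, adjusted p = 0.0197) with Sez6 (0.47 ± 0.16, adjusted p = 0.0353), whose call was lost in 10 of 20 settings. Csmd2 was the third that was higher (0.51, adjusted p = 0.0462). Of 6 TREM2 and TYROBP pathway genes tested 1 passed, Clu, encoding an apolipoprotein that TREM2 binds, at 104 to 350 FPKM in hippocampus and 59.3 to 87.1 in cortex (1.53 ± 0.24, adjusted p = 0.000489). Apoe, another such apolipoprotein, had 230.1 to 701 FPKM in hippocampus and 339 to 864 in cortex replicates 1 to 3, and was not called. Of 18 lysosomal genes of the kind Ctss belongs to 2 were higher, Ctso (0.54, adjusted p = 0.0237) and Npc2 (0.44, adjusted p = 0.0223), and 1 lower, Ctsk (-0.83, adjusted p = 0.0134). Ctsb, a cysteine protease, had 86.2 ± 13.3 and 79.2 ± 8.33 FPKM, and Ctsd, an aspartic protease, 261 ± 126 and 160.5 ± 32.2, neither called. Cst3, an inhibitor of cysteine cathepsins, had 617 ± 115 and 478 ± 202 FPKM and was not called. Around P2ry12, 4 of 9 purine genes passed: the ectonucleotidase Entpd2 (1.46) and the receptor P2rx7 (0.50) were higher, and the receptors P2ry1 (-0.49) and Adora2a (-2.02) lower.

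**Figure D2:**
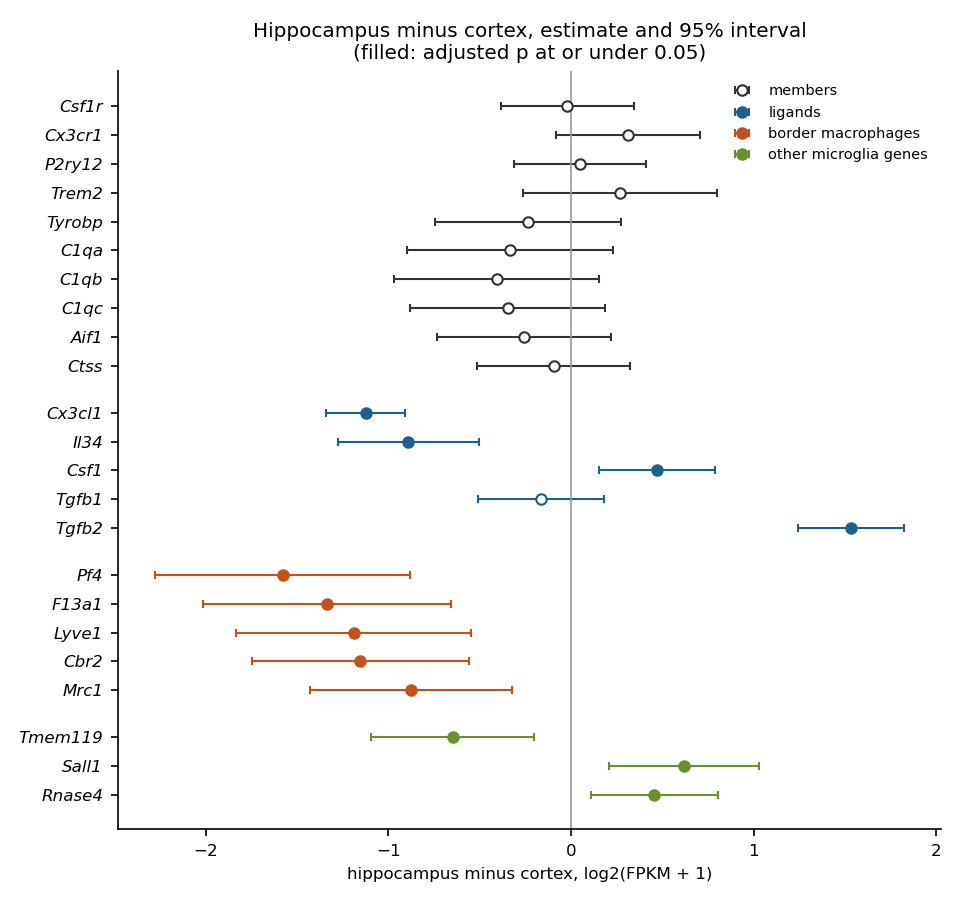
Hippocampus minus cortex on log2(FPKM + 1) (horizontal axis) for the 10 genes, ligands, border macrophage genes and other microglia genes (vertical axis), with 95% intervals from limma and filled points for an adjusted p at or under 0.05. The 10 open points at the top lie between -0.41 and 0.31, while Cx3cl1 (-1.13), Il34 (-0.89) and Pf4 (-1.58) lie to the left and Tgfb2 (1.53) to the right.

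The tissue labels were checked with Prox1, a marker of dentate granule cells, which was 5.67 to 21.5 FPKM in hippocampus and 1.57 to 3.16 in the 10 cortical libraries. Median-of-ratios scaling moved the median of all genes between tissues by -0.12 and turned the calls from 3233 higher and 1428 lower to 2158 and 2232. No member was called under it, and P2ry12 then had -0.05.

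In cortex EE minus SH, none of the 9 members tested was called over all 10 libraries, with the 2 sets of replicates as a factor, and 1 of 12539 genes was (0.00798%). Their median log2 difference was -0.09 (all genes -0.02), from -0.34 for Tyrobp (adjusted p = 0.731) to 0.24 for Cx3cr1 (adjusted p = 0.739). At an unadjusted p under 0.05 none of the 9 passed either. The 95% intervals still allowed sizeable differences, of -0.64 to 0.57 for C1qa and -0.29 to 0.25 for Csf1r. Behind this median the 2 sets of cortical libraries went opposite ways.

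Of the receptors, Csf1r and P2ry12 stayed closest to 0. Csf1r was 11.2, 9.73 and 10.1 FPKM in EE replicates 1 to 3 and 12.3, 10.2 and 9.99 in SH, and 7.21 and 11.2 in EE replicates 4 and 5 against 8.26 and 9.43 in SH. EE and SH overlapped in both sets, with log2 differences of -0.05 (95% interval -0.36 to 0.25) and 0.03 (-0.41 to 0.47). P2ry12 was 3.21, 2.12 and 2.27 FPKM in EE replicates 1 to 3 and 3.15, 2.03 and 2.17 in SH. In replicates 4 and 5 it was 1.98 and 2.68 in EE and 1.35 and 2.60 in SH, and the groups overlapped in both sets. Cx3cr1 in replicates 4 and 5 was 4.18 and 6.49 FPKM in EE and 2.79 and 4.04 in SH, which did not overlap (0.51, 0.06 to 0.96, adjusted p = 0.216). In replicates 1 to 3 its difference was 0.06 (-0.25 to 0.36).

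The C1q chains had opposite signs in the 2 sets. C1qa was 26.0, 24.4 and 26.8 FPKM in EE replicates 1 to 3 and 36.0, 27.1 and 57.5 in SH, with every EE value below every SH value. In replicates 4 and 5 it was 23.5 and 35.7 in EE and 16.7 and 17.0 in SH, with both EE values above both SH values. The log2 differences were -0.56 ± 0.25 (SE, limma adjusted p = 0.414) and 0.75 ± 0.21 (adjusted p = 0.0173). The latter is the 1 call among the members in either set, against 0 of 12890 genes called (0%; 247 higher and 950 lower at an unadjusted p under 0.05) in replicates 1 to 3 and 3.46% of 12576 in replicates 4 and 5. With 2 libraries a group that fit rests on a spread borrowed from all genes. In the same 4 libraries all 6 choroid plexus markers tested were positive (3 called; summed level 721 and 51.9 FPKM in EE, 47.9 and 51.3 in SH), 4 of 5 erythroid genes were positive (1 called; 965 and 1798 in EE, 869 and 1053 in SH), and S100a8 (-1.47) and S100a9 (-1.36) were called lower. Their part in the C1qa call was not tested. C1qb in replicates 1 to 3 had 31.9 to 36.0 FPKM under EE and 37.5 to 74.1 under SH, and 28.0 and 38.8 against 20.7 and 25.7 in replicates 4 and 5. C1qc was 30.8 to 35.6 and 34.6 to 57.4 FPKM in the first set, which overlapped, and 27.5 and 37.2 against 22.4 and 22.3 in the second, which did not. Neither C1qb (0.50) nor C1qc (0.50) was called in replicates 4 and 5 (adjusted p = 0.165 and 0.169). The 3 chains kept close ratios while they moved: C1qb over C1qa was 1.09 to 1.52 and C1qc over C1qa 0.998 to 1.34 in 16 libraries, while C1qa itself ranged 4.97-fold.

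Tyrobp separated EE from SH in replicates 1 to 3 but not in replicates 4 and 5. It was 19.9, 19.1 and 19.8 FPKM in EE and 25.0, 24.9 and 43.2 in SH, without overlap (-0.59 ± 0.21, SE, adjusted p = 0.414), and 12.4 and 19.7 in EE replicates 4 and 5 against 15.8 and 14.7 in SH, where EE spanned SH (0.03 ± 0.21, adjusted p = 0.965). Trem2 was 3.995, 3.896 and 6.78 in EE and 6.92, 5.30 and 11.03 in SH in the first set, which overlapped. In the second it was 3.99 and 6.57 in EE against 2.91 and 3.96 in SH, with EE above SH by a narrow margin. Aif1 was 1.84, 0.821 and 1.60 FPKM in EE replicates 1 to 3 and 3.06, 1.92 and 5.36 in SH, without overlap (-0.83 ± 0.30, adjusted p = 0.414). Ctss, a lysosomal protease that cuts antigen and matrix proteins, was 11.4, 8.51 and 10.8 in EE and 14.8, 9.80 and 14.2 in SH, which overlapped (-0.30 ± 0.19, adjusted p = 0.423). In replicates 4 and 5 it was 9.30 and 11.9 against 7.88 and 10.3, which also overlapped.

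Counted over members, replicates 1 to 3 gave 8 negative of 10 (median -0.51, all genes -0.03) and replicates 4 and 5 gave 9 positive of 9 (median 0.48, all genes -0.01). EE and SH did not overlap for 4 of 10 members in the first set, all lower in EE, where 29.9% of all genes did not overlap. They did not overlap for 5 of 9 in the second, all higher in EE, where 46.6% of all genes did not, so both shares are near their background. The difference between the sets was tested as an interaction and no member passed, with 0 of 12539 genes called (0%) and 1484 higher and 950 lower at an unadjusted p under 0.05. C1qa had 1.31 ± 0.39 (SE, adjusted p = 0.251), C1qb 1.06 ± 0.36 (0.251), Trem2 1.03 ± 0.44 (0.254) and C1qc 0.97 ± 0.29 (0.251), and these 4 had an unadjusted p under 0.05.

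**Figure D3:**
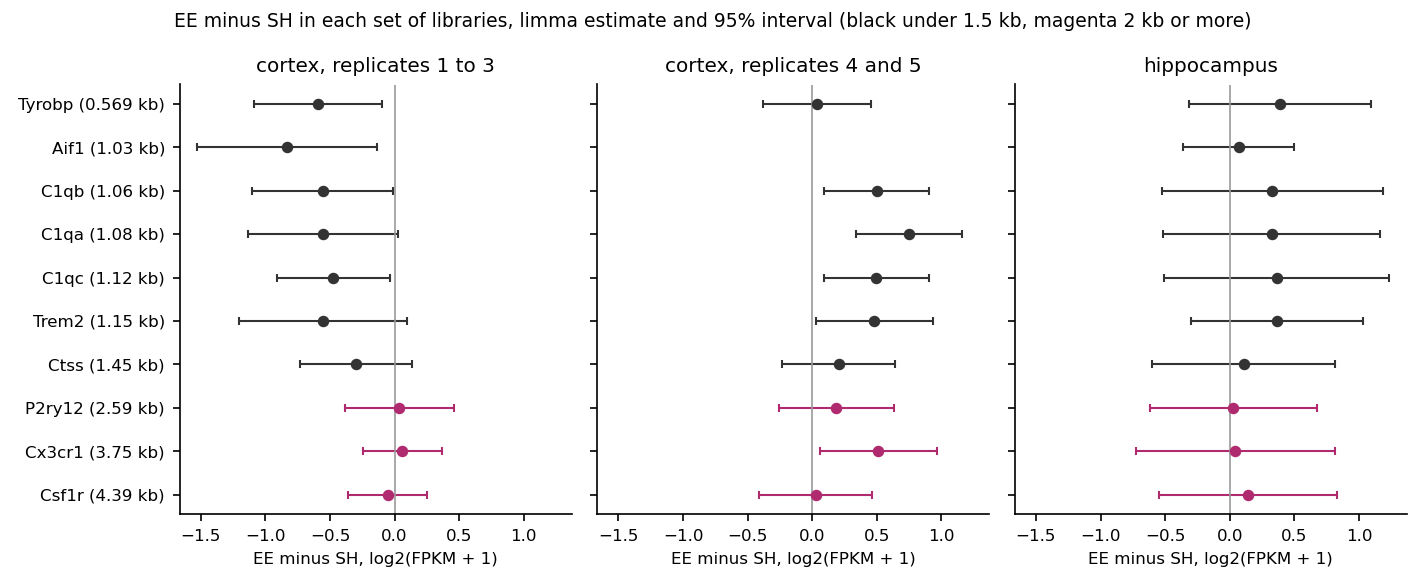
EE minus SH on log2(FPKM + 1) (horizontal axes) with 95% limma intervals for each gene (vertical axis, ordered by implied transcript length) in cortex replicates 1 to 3, cortex replicates 4 and 5 and hippocampus. The 7 genes under 1.5 kb, in black, run from -0.83 to -0.30 in the first set and from 0.03 to 0.75 in the second (Aif1 not listed), while the 3 longer genes, in magenta, lie within 0.06 of 0 in the first.

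The members farthest below 0 in replicates 1 to 3 were those with short transcripts. The transcript length implied by the deposited values was 0.569 kb for Tyrobp, 1.03 for Aif1, 1.06 for C1qb, 1.08 for C1qa, 1.12 for C1qc, 1.15 for Trem2 and 1.45 for Ctss, and 2.59 for P2ry12, 3.75 for Cx3cr1 and 4.39 for Csf1r. This split was drawn after the values were seen. In replicates 1 to 3 all 7 shorter members were negative (median -0.56), as was the median of all 1808 genes under 1.5 kb (-0.42). In replicates 4 and 5 the 6 shorter members listed had a median of 0.49, and all 1489 genes under 1.5 kb had 0.30. The 3 longer members had medians of 0.04 and 0.19. Short transcripts as a whole leaned the same way as the members in both sets. The part of length in the members' differences within each set was not tested. The trend removal given below was run on all 10 cortical libraries, where the opposite signs of the 2 sets had already brought the median to -0.09. Cortex SH replicate 3 stood apart in the first: all of its short members but Ctss lay above all other libraries of the set, at 166% (C1qc) to 291% (Aif1) of their median. Of all 12890 genes of the set, 36.0% were highest in cortex SH replicate 3 and 44.7% were lowest there. The Spearman correlation across genes between deviation from the block and length was -0.76 there. It was 0.22 and 0.29 in the other SH libraries of that set and 0.45 to 0.64 in EE. In replicates 4 and 5 it was -0.39 and -0.19 in EE and 0.25 and 0.45 in SH. The 5 erythroid genes listed throughout summed to 4072 FPKM in cortex SH replicate 3 and to 1137 to 1617 in the other 5 libraries of the set, and their part in the result was not tested. After removal of a fitted trend on length and GC content from each library, the members' median over all cortical libraries was 0.01. With the trend kept and cortex SH replicate 3 left out it was 0.06.

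**Figure D4:**
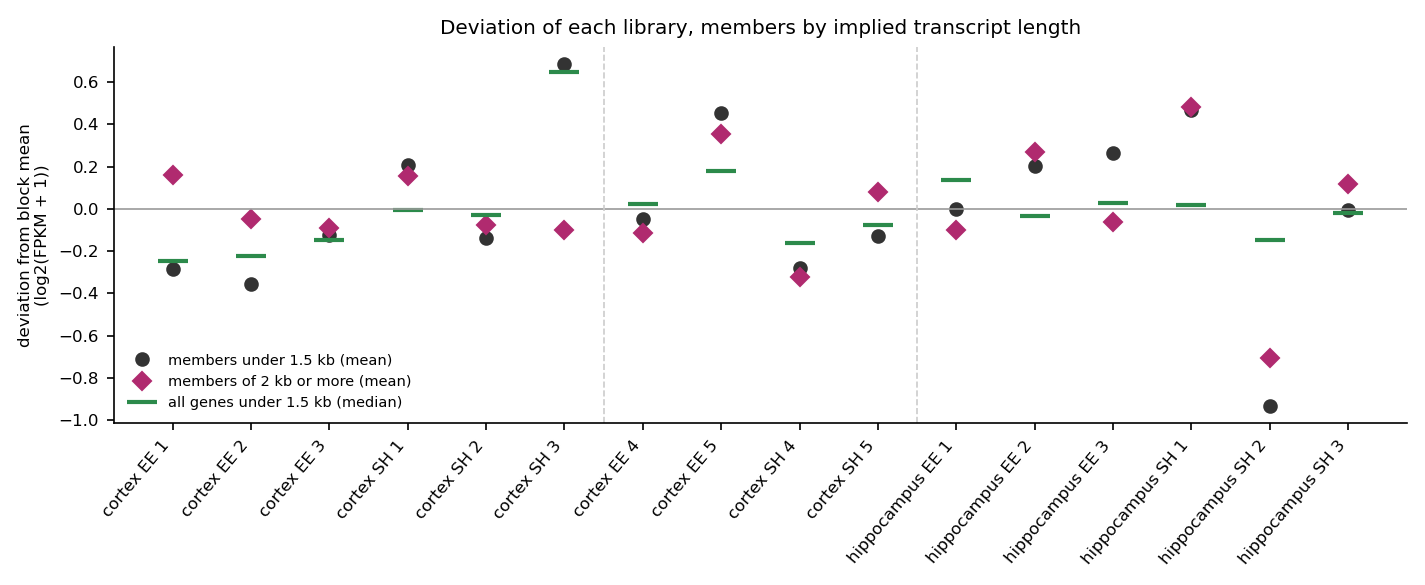
Deviation of each library (horizontal axis) from the mean of its block on log2(FPKM + 1) (vertical axis), as the mean of the 6 members under 1.5 kb listed in all libraries, the mean of the 3 members of 2 kb or more, and the median of all genes under 1.5 kb. In cortex SH replicate 3 the shorter members are at 0.69 and all short genes at 0.65 with the longer members at -0.10, whereas in hippocampus SH replicate 2 both member classes are low (-0.93 and -0.71) and all short genes are at -0.15.

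In hippocampus none of the 10 genes was called for EE minus SH, and 0 of 13344 genes was (0%). At an unadjusted p under 0.05 limma had 94 genes higher and 409 lower, with none of the 10 among them, and limma-voom on recovered reads called 0 genes. The 10 differences were all positive, with a median of 0.23 (all genes -0.01), from 0.03 for P2ry12 to 0.39 for Tyrobp, each with an adjusted p of 0.9996. The 7 shorter members had a median of 0.33 and the 3 longer 0.04. All 1833 genes under 1.5 kb had 0.10, with 75.9% positive. The Spearman correlation of deviation with length was -0.47 in EE replicate 1 and -0.14 to 0.26 in the others. With the length trend removed the members' median was 0.17, with 9 positive and 1 negative. EE and SH overlapped for all 10, where 9.91% of all genes did not overlap. C1qa was 23.9, 29.9 and 30.0 FPKM in EE and 35.2, 11.6 and 25.7 in SH, so that SH held both the highest and the lowest library. Csf1r was 9.35, 12.9 and 10.9 in EE and 15.0, 5.89 and 10.6 in SH, and Tyrobp 20.7, 26.5 and 23.7 in EE and 27.7, 10.7 and 18.6 in SH. In both, SH replicate 1 lay above and SH replicate 2 below every EE library. Trem2 was 8.82, 7.95 and 8.86 in EE and 9.79, 3.66 and 7.02 in SH, and Ctss 11.1, 10.3 and 11.8 in EE and 15.97, 5.83 and 11.01 in SH, with the same order at both ends. C1qb was 27.9, 39.6 and 39.4 in EE and 45.8, 15.2 and 30.6 in SH. Aif1 was the exception at the top, at 1.86, 1.84 and 1.47 in EE and 1.63, 1.11 and 2.15 in SH, where SH replicate 3 was highest.

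Hippocampus SH replicate 2 was the lowest of the 6 hippocampal libraries for all 10 members, at 38.5% (C1qb) to 60.2% (Aif1) of the median of the other 5, while 26.0% of all genes were lowest there. SH replicate 1 was the highest for 9 of 10, all but Aif1, while 29.0% of all genes were highest there. Both length classes were low in SH replicate 2. The Spearman correlation of deviation with length across genes was 0.26 in that library and -0.47 to 0.13 in the other hippocampal libraries. All genes under 1.5 kb had a median deviation of -0.15 in SH replicate 2. The part of length in its low values was not tested. The summed levels of border macrophage, choroid plexus and meningeal markers were lowest in SH replicate 2 and highest in SH replicate 1. Single markers could differ, with Pf4 and Lyve1 highest in EE replicate 2 and Ttr lowest in EE replicate 3. The lowest and highest sums also both lay in SH for endothelial (94.3 and 160.5 FPKM) and pericyte markers (75.4 and 137.4). The same held for radial glia and astrocyte (1415 and 2195) and lysosomal genes (957.5 and 1876). The 14 neuronal markers went the other way on average, at 1.16 and 0.845 times the mean of the block in SH replicates 2 and 1. The 6 border macrophage markers summed to 10.3 FPKM in SH replicate 2 and 38.5 in SH replicate 1, with 13.2 to 37.3 in the other 4. The 6 choroid plexus markers summed to 45.8 FPKM in SH replicate 2 and 17080 in SH replicate 1, with 48.2 to 10580 in the others. The library at 48.2 was EE replicate 3, with members at 1.11 times the mean of the block. The 12 meningeal and fibroblast markers summed to 260.9 and 476.7, with 278.6 to 454.6 in the others. None of these markers was at 0 in a hippocampal library, and their part in the members' levels was not tested. Without SH replicate 2 the members' median EE minus SH was -0.10, with 8 of 10 differences negative, from -0.33 (Cx3cr1) to 0.05 (Tyrobp).

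The EE effect in hippocampus minus that in cortex, tested as an interaction in replicates 1 to 3, was called for none of the 10 genes and for 0 of 13158 genes (0%), or 0 with limma-voom, while 709 were higher and 281 lower at an unadjusted p under 0.05. This comparison uses the same libraries as those above. Its members' median was 0.86 (all genes -0.0046), with Tyrobp at 0.98 ± 0.40 (SE, adjusted p = 0.495) and Aif1 at 0.90 ± 0.37 (0.495), the 2 with an unadjusted p under 0.05. The 7 shorter members had a median of 0.89 and all genes under 1.5 kb 0.51, and the 3 longer members had -0.01. The median was 0.41 without hippocampus SH replicate 2, 0.60 without cortex SH replicate 3 and 0.29 with the length trend removed.

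None of the EE comparisons called a gene of the other microglia, border macrophage, ligand, TREM2 pathway, complement or lysosomal lists over all cortical libraries or in hippocampus. In cortex 15 of 20 other microglia genes were negative (median -0.12) and in hippocampus 18 of 24 were positive (median 0.12). Of 18 lysosomal genes 14 were negative in cortex (median -0.07) and 18 positive in hippocampus (median 0.10). The sets of cortical libraries differed here too, untested as lists: the other microglia genes were negative for 17 of 21 in replicates 1 to 3 (median -0.23) and positive for 11 of 21 in replicates 4 and 5 (median 0.02), and the lysosomal genes were negative for 16 of 18 (median -0.21) and positive for 13 of 18 (median 0.07). The ligands did not share one direction: 7 of 10 were positive in cortex and 4 of 10 in hippocampus, with Cx3cl1 at 30.8 ± 3.94 FPKM in cortex EE and 30.2 ± 3.38 in SH (SD, n = 5 each).

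Across the 16 libraries the 9 members other than Aif1, which 4 libraries do not list, followed the mean of the rest after centring within blocks, with Pearson r of 0.94 for C1qc, 0.93 for C1qb, 0.92 for C1qa and Ctss, 0.84 for Trem2, Csf1r and Tyrobp, 0.77 for Cx3cr1 and 0.70 for P2ry12. These are descriptions over libraries that share blocks and length trends. Of 12663 other genes, the 8 most like the members' mean profile were Acadl (r = 0.94, mean 20.1 FPKM), Fcrls (0.94, 10.1), Casp6 (0.94, 8.07), Ppic (0.94, 21.2), Itm2a (0.94, 56.3), Laptm4a (0.93, 131.0), Tpd52l1 (0.93, 8.22) and Decr1 (0.92, 6.03). Only Fcrls, an Fc receptor-like gene of microglia, was among the fixed lists. Without hippocampus SH replicates 1 and 2, the libraries farthest from the median of the profile, the r of these 8 was 0.82 to 0.93.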

How the data were processed

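The deposited values are FPKM per gene and library, made by the authors from total RNA. Build mm10 and the tools StringTie 1.3.4d, HISAT2 2.0.4, cutadapt 1.9, DESeq2 and edgeR are listed in the submitters' processing notes, and what each did is not given in the sources used here. The members and gene lists were chosen with earlier results of these data known. Differences were tested with limma 3.58.1 (R 4.3.3, variance trend) on log2(FPKM + 1), for genes listed in all libraries compared with a mean of at least 1 FPKM, with Benjamini-Hochberg adjustment over all genes and a threshold of 0.05. The pseudocount of 1 understates the change of low genes. The cortical fit held the set (replicates 1 to 3, or 4 and 5) as a factor, and the tissue comparison used replicates 1 to 3 with a treatment term. A median of 0.09 over all genes between tissues shifts by -0.12 under median-of-ratios scaling.

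FPKM divided by the value of 1 read gave whole reads for 99.8% to 99.9% of genes (tolerance 0.003 reads), 10683140 to 20098661 a library, and the transcript length each gene was counted over. Named genes were the members, genes fixed by role, and up to 4 called genes a list by smallest p. Cd163, Csmd2, Ctso, Npc2, Ctsk, S100a8, S100a9 and the 4 purine genes were named after their values were seen. A few genes that the rule names are not reported here. Alternatives were another scaling, pseudocount (0.1) or filter (none, or 5 FPKM), a replicate block, the omission of each library and the sets of replicates. Limma-voom on recovered reads and a removed length and GC trend were chosen after seeing the data. The fits were checked on simulated data, where a shift of 1 on the log2 scale was called for 71% of genes in cortex, 61% in hippocampus, 86% between tissues and 27% for the interaction, and a shift of 0.5 for 30%, 6%, 47% and 0%.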

Additional observations from a re-analysis of the deposited data

Results flagged for a closer look

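In a group of 5 libraries a value was singled out where its gap to the nearest other exceeded Dixon's 95% critical share of the group's range, which chance does in about 1 in 20 groups, and 2 of 18 groups met it. C1qa in cortex EE replicate 5 was 35.7 FPKM, above the other EE libraries by 0.728 of the range, and Tyrobp in cortex EE replicate 4 was 12.4 FPKM, below the others by 0.897 of it. Each group pooled the 2 sets of cortical replicates, and both values came from replicates 4 and 5, so that rate need not apply.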

How the results depend on the processing

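Of the alternative values of the members' differences 616 kept their direction and side of the threshold, 65 changed sign and 1, Cx3cr1 between tissues without hippocampus SH replicate 2, became a call. Of those of other named genes 375 kept both and 36 lost the call. Not all of these values were free to move. Another filter or a replicate block could change only the p-value of a difference, as could the removed length trend between tissues.

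Leaving out each library in turn gave 1 to 3 called genes in cortex, and cortical differences of -0.12 to 0.060 for Csf1r, -0.24 to 0.19 for C1qa, -0.30 to 0.068 for C1qb, -0.24 to 0.057 for C1qc, -0.33 to 0.056 for Trem2 and -0.012 to 0.18 for P2ry12. In hippocampus it gave a members' median of -0.10 to 0.53, with -0.081 to 0.21 for Aif1, -0.19 to 0.42 for Csf1r, -0.11 to 0.65 for C1qa, -0.089 to 0.68 for C1qb and C1qc, -0.33 to 0.35 for Cx3cr1, -0.28 to 0.22 for P2ry12 and -0.25 to 0.41 for Ctss. Between tissues it gave -0.13 to 0.14 for Csf1r, 0.17 to 0.47 for Cx3cr1, -0.037 to 0.19 for P2ry12 and -0.21 to 0.086 for Ctss. In the interaction of tissue and treatment it gave a median of 0.41 to 1.06, with -0.13 to 0.48 for Csf1r, -0.38 to 0.29 for Cx3cr1 and -0.32 to 0.19 for P2ry12.

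In cortex, replicates 1 to 3 alone gave 0 calls and a median of -0.51. Replicates 4 and 5 alone gave 435 calls and a median of 0.48, with Csf1r at 0.028, C1qa at 0.75, C1qb and C1qc at 0.50, Tyrobp at 0.034, Trem2 at 0.48 and Ctss at 0.20. With the length trend removed cortex had 7 calls, with C1qa at 0.0945, C1qb at 0.011, C1qc at 0.055, Trem2 and Ctss at 0.0009, hippocampus had Aif1 at -0.024, and the interaction had a median of 0.29 with Cx3cr1 at 0.047 and P2ry12 at 0.0044. Between tissues P2ry12 was -0.050 under median-of-ratios scaling and -0.059 with limma-voom, cortex replicates 1 to 5 gave Csf1r 0.067 and Tyrobp 0.012, and a filter of 5 FPKM gave 2744 calls among fewer genes. In the interaction P2ry12 was 0.020 with a pseudocount of 0.1 and 0.039 with limma-voom, and Cx3cr1 was 0.018 with limma-voom. Beyond the trend and the smaller sets of libraries or genes, the cause was not tested.

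Same-numbered libraries did not deviate together throughout (correlations of 0.09 to 0.41 in cortex, -0.56 to 0.44 in hippocampus and -0.03 to 0.28 between tissues), so the numbers were not read as pairs. A replicate block gave 1 call in cortex, 0 in hippocampus, 4357 between tissues and 0 in the interaction, with members' medians of -0.09, 0.23, -0.17 and 0.86, and changed no member's call. Depth limits Aif1 most, at 14 to 123 reads a library.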
